A study of Mus musculus with 4 samples.

Results

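The genes Ciita, Dexi, Clec16a and Socs1 lie side by side on mouse chromosome 16. Their bodies with 50 kb on either side form 1 continuous stretch of 405.5 kb in mm10 (10430014 to 10835536). Within it, 17 of the 9444 peaks deposited for 2 streptavidin ChIP-seq libraries had their midpoint, 4 of 4246 in the NKT list and 13 of 5198 in the PLZF-transgenic list. The neighbourhood was selected by the peaks themselves, with the number in and around Clec16a known, so peak numbers, positions, overlaps and scores here are descriptions with no test.

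The study pulled down PLZF, the BTB zinc finger factor encoded by Zbtb16, with streptavidin beads from sonicated nuclei of thymocytes of mice on a C57BL/6J background. The NKT library came from PLZF tg/BirA tg/Valpha14 tg mice, which carry transgenes for PLZF, for the biotin ligase BirA and for the Valpha14 T cell receptor chain of invariant natural killer T cells. The PLZF-transgenic library, named Tg thy in the labels, came from PLZF tg/BirA tg mice. Both thus share the PLZF and BirA transgenes, and a pull-down from mice without them was not analysed here, so streptavidin signal that does not come from PLZF cannot be told apart. The labels call both cell populations thymocytes and name no sorting. The sources used here do not give the promoters of the transgenes or the age and number of the animals. The 2 input libraries were not analysed here. Each group had a single library (n = 1), so no value has a replicate error. The depth is unknown, and the deposited peak score, on a scale that no source used here states, can grow with depth. Scores of both lists side by side therefore show no change between the libraries.

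Socs1 encodes a feedback inhibitor that binds JAK kinases and dampens signalling by cytokines such as interferon gamma, interleukin 2 and interleukin 15, and thymocytes need it for normal development. Ciita encodes the coactivator that switches on MHC class II genes in antigen-presenting cells, and mouse T cells normally keep it silent. Clec16a encodes an endolysosomal ubiquitin ligase that acts in mitophagy and autophagy. Dexi encodes a small protein whose role is less well known. The corresponding human region is a susceptibility region for autoimmune disease.

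The sequences shown are the 2 promoter windows of the neighbourhood that a peak overlapped or lay near. RefSeq windows of 300 bases (GRCm38.p6, the assembly that mm10 names, 250 bases before to 50 after the gene start) were found for 3 of the 4 members, Dexi, Clec16a and Socs1, but not for Ciita. The first belongs to Gm15558, a long noncoding RNA gene inside Clec16a, on the minus strand (chr16:10683560-10683859), and its 163 capitals mark the part that a PLZF-transgenic peak covered. The second belongs to Socs1, also on the minus strand (chr16:10785487-10785786), and its capitals mark matches to the motifs searched.
Gm15558: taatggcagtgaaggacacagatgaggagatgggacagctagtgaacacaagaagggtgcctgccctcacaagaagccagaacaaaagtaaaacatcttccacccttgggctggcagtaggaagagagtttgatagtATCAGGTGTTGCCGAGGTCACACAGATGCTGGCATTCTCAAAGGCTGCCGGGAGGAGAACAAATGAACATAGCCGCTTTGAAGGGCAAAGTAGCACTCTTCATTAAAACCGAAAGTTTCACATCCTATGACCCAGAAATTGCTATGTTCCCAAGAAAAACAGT
Socs1: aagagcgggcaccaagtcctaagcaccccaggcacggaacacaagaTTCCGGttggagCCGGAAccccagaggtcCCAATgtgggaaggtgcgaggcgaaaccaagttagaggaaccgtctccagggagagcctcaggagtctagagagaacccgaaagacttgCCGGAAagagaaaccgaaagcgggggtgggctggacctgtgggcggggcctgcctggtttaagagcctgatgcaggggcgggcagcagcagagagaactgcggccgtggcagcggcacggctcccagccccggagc

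Of the 11 promoter windows in the neighbourhood, the Gm15558 window alone overlapped a peak, and only in the PLZF-transgenic list. No NKT peak overlapped any of the 11. Over all 32851 promoter windows, 1.7% overlapped an NKT peak and 2.33% a PLZF-transgenic peak. Motifs were searched on both strands. The ETS core CCGGAA matched 3 times in the Socs1 window and CCAAT matched once there, with no overlap between the matches, while the Gm15558 window had no match to any of the motifs. Of all windows, 14.9% held CCGGAA at least once and 37.4% held CCAAT at least once. Among the 11, the Socs1 window alone held CCGGAA. The STAT motif TTCNNNGAA (8.3% of windows) was in the window of Prm3 alone among the 11, and TGTGGT (RUNX, 16.8%) and the E-box CAGCTG (16.3%) were in none of the 11. CCAAT was also in the windows of Clec16a, Dexi, Prm3 and the noncoding gene LOC115488669. A match is only a description of these letters.

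Peaks lay in the high-coordinate part of Clec16a and beyond Socs1, and none lay at Ciita or Dexi. All 3 NKT peaks inside Clec16a and 10 of the 11 PLZF-transgenic ones were past the midpoint of its 199.6 kb body (10545309 to 10744878, plus strand). The remaining PLZF-transgenic peak lay at 47.3% of the gene length, with a score of 50.03, near the lowest in the list. The first peak began 123 kb into the gene in the NKT list and 94.2 kb in the PLZF-transgenic list. Ciita (10480014 to 10531064) and Dexi (10530207 to 10543054) had 0 peaks in their bodies and within 50 kb in both lists. The nearest peak to Ciita was 137 kb away in the NKT list and 108 kb in the PLZF-transgenic list, and the nearest to Dexi 125 and 96.5 kb. At least 1 peak in the body or within 50 kb was found for 26.3% of 21887 protein-coding genes in the NKT list and for 30.3% in the PLZF-transgenic list. The gene table holds no exons, so exonic, intronic and UTR positions were not told apart.

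**Figure D1:**
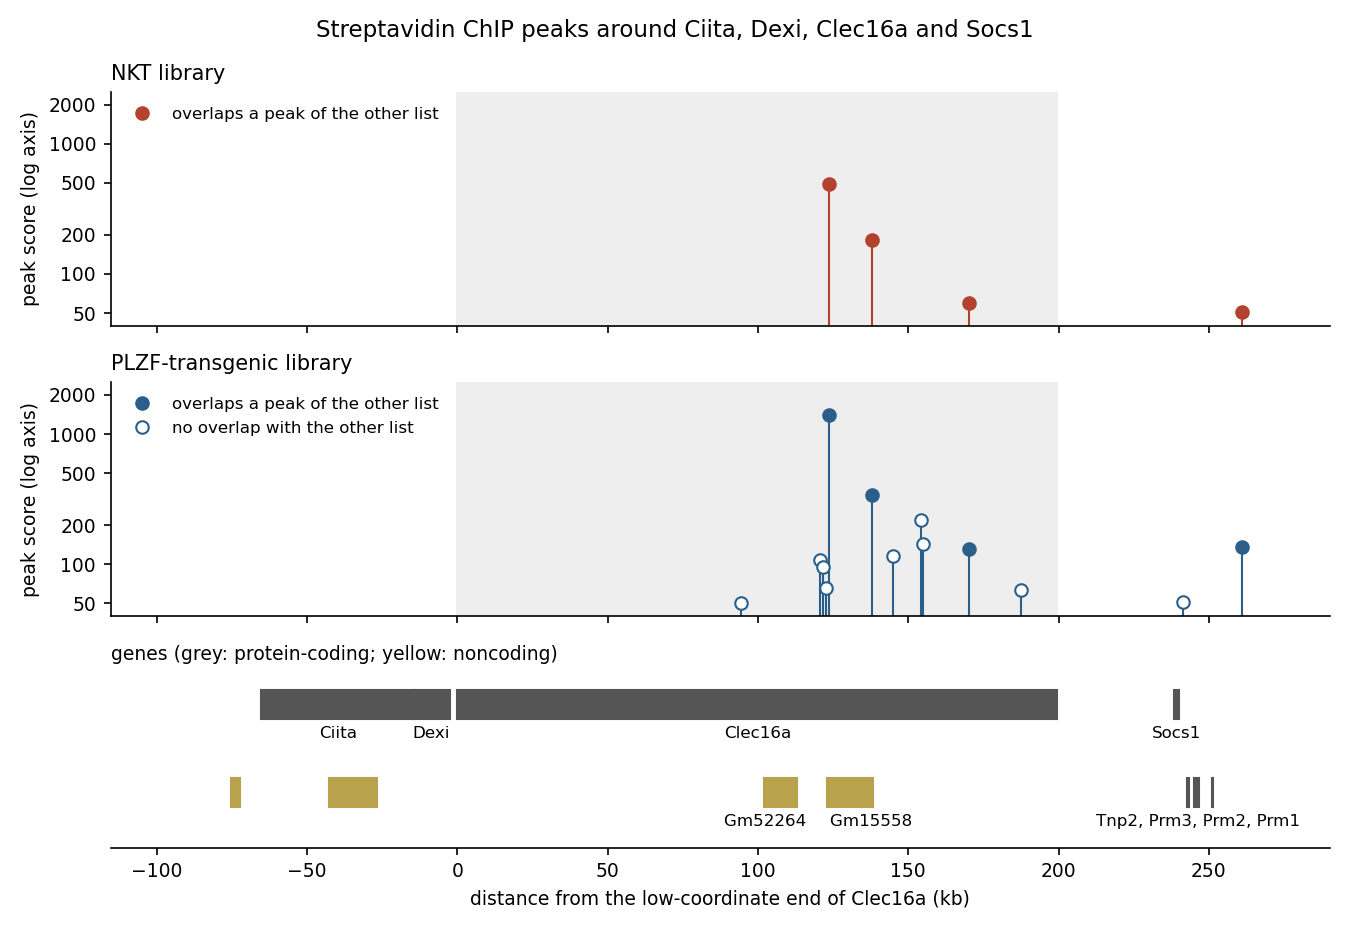
Peak scores (log axis) against the distance from the low-coordinate end of Clec16a in kb, for the NKT library (top) and the PLZF-transgenic library (middle), with genes below and the Clec16a body shaded. Filled points overlap a peak of the other list; all 4 NKT peaks and 4 of the 13 PLZF-transgenic peaks do, and no peak lies over Ciita or Dexi.

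The strongest site of the neighbourhood was the same in both lists. It lay 123.6 kb into Clec16a, at 61.9% of its length. The NKT peak (chr16:10668365-10669431) was 1067 bp wide with a score of 488.3, which ranked 79 of 4246. The PLZF-transgenic peak (chr16:10668349-10669503) was 1155 bp wide with a score of 1391, which ranked 21 of 5198. The NKT peak lay wholly inside the PLZF-transgenic one, and their midpoints were 28.0 bp apart. Gm15558 (10668360 to 10683609) runs on the minus strand, opposite to Clec16a. The NKT peak began 5 bp inside its 3' end, and the PLZF-transgenic peak began 11 bp outside and covered that end.

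The next strongest site lay at the other end of the same noncoding gene. The NKT peak (chr16:10683067-10683434, 368 bp) had a score of 182.2 and ended 175 bp inside Gm15558, short of its start and 125 bp from the promoter window printed above. The PLZF-transgenic peak (chr16:10682987-10683722, 736 bp) had a score of 341.7 and reached 113 bp past the start. Both top sites thus sat at the ends of the 15.2 kb Gm15558 body, with 14.4 kb between their midpoints in each list. No function of Gm15558 is given in the gene table, and binding there says nothing on whether it is expressed.

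Around the strongest site the PLZF-transgenic list held 3 more peaks on its Gm52264 side. They lay 120.5, 121.7 and 122.8 kb into Clec16a with scores of 107.2, 95.11 and 65.16, and the last ended 79 bp before the strongest peak. These 4 peaks spanned 3915 bp. The NKT list had no separate peak there. The noncoding gene Gm52264 (10647231 to 10658368) held no peak midpoint in either list.

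**Figure D2:**
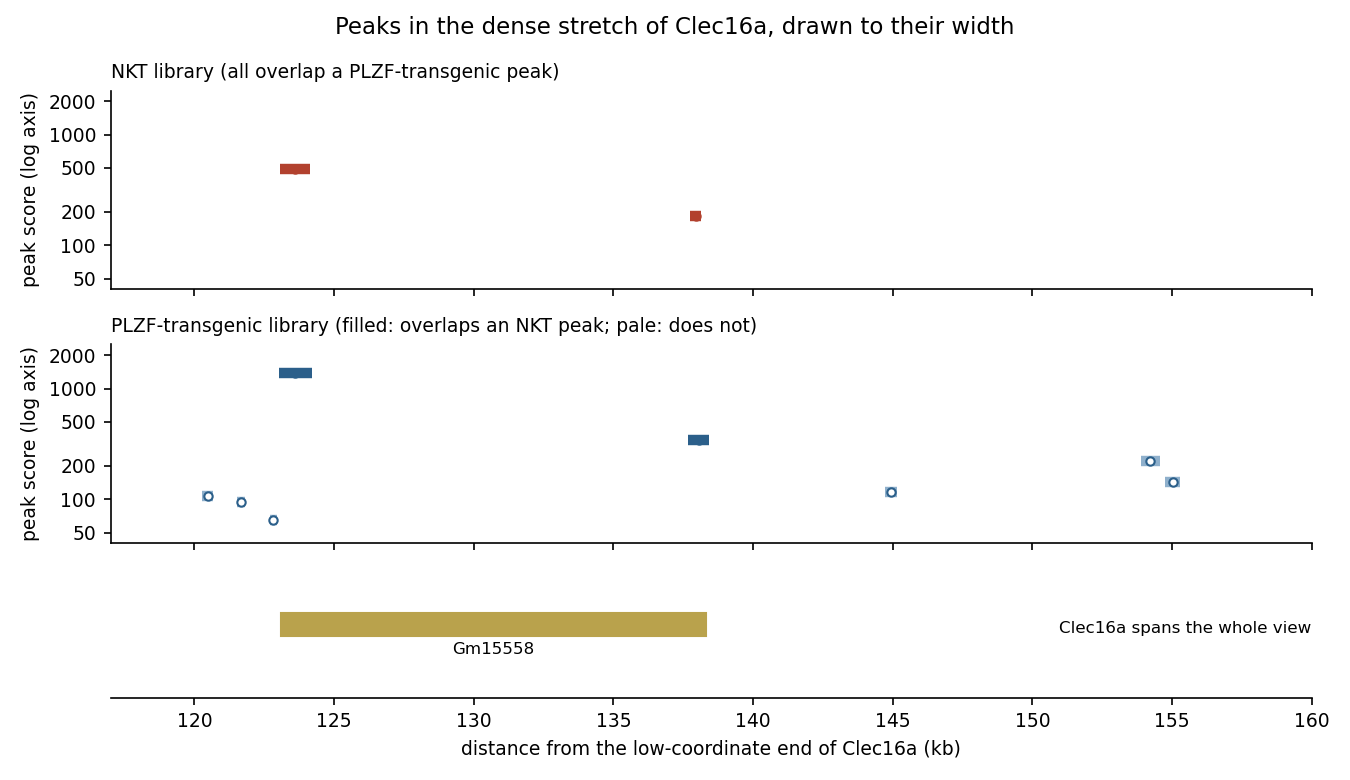
Peaks in the dense stretch of Clec16a, each drawn as a horizontal line at its score (log axis) with its midpoint as a point, against the distance from the low-coordinate end of Clec16a in kb, NKT library above PLZF-transgenic library. Both peaks of the NKT panel sit at the ends of Gm15558 (scores 488.3 and 182.2), and the PLZF-transgenic panel has 6 further peaks with no NKT overlap.

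Further along Clec16a, the PLZF-transgenic list held 5 peaks and the NKT list 1. A pair 161 bp apart, at 77.3% and 77.7% of the gene length (10699189 to 10700610 together), had PLZF-transgenic scores of 219.6 and 143.1 and no NKT counterpart. Peaks at 72.6% and 93.9% (scores 116.5 and 63.45) were likewise in the PLZF-transgenic list alone. The peak at 85.3% had a counterpart, with scores of 59.29 in the NKT list (chr16:10715292-10715500, 209 bp) and 132.0 in the PLZF-transgenic list (chr16:10715247-10715659, 413 bp). No peak in either list lay between the last Clec16a peak of that list and the Socs1 gene, which begins 38.9 kb after Clec16a ends.

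At Socs1 (10783808 to 10785536) no peak lay inside the gene. In the PLZF-transgenic list a peak of 250 bp (chr16:10786471-10786720) began 935 bp upstream of the gene start, 684 bp beyond the printed promoter window. Its score of 50.83 ranked 5109 of 5198, and the NKT list had none there. A second site lay 20.6 kb from Socs1, with scores of 51.41 in the NKT list (chr16:10806155-10806311, 157 bp) and 135.2 in the PLZF-transgenic list (chr16:10806091-10806510, 420 bp). This site was nearer to Prm1 (9.33 and 9.27 kb from the NKT and PLZF-transgenic peaks), the last of a row of spermatid genes made up of Tnp2, Prm3, Prm2 and Prm1. The nearest gene need not be the one a site acts on.

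The edge of the stretch passed close to a peak. The last PLZF-transgenic peak inside had its midpoint 29.2 kb from the edge and a score of 135.2. The first outside lay 1.04 kb past it, in Rmi2, which encodes a subunit of the BLM helicase complex, with a score of 243.5, higher than 11 of the 13 scores inside. It had no NKT counterpart. A further PLZF-transgenic peak in Rmi2 had a score of 56.16, and a site beyond that gene had scores of 53.11 in the NKT list (0.798 kb from Rmi2) and 130.0 in the PLZF-transgenic list (0.842 kb). Up to 100 kb from the members, these were all peaks past the edge.

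All 4 NKT peaks of the neighbourhood overlapped a PLZF-transgenic peak by at least 1 bp (100%, exact 95% interval 39.8 to 100%), where 60.7% of all NKT peaks did. Of the 13 PLZF-transgenic peaks, 4 overlapped an NKT peak (30.8%, 9.09 to 61.4%), where 45.7% of all did. Both background shares lie inside these Clopper-Pearson intervals, but with so few peaks this decides nothing. The intervals cover counting error only, neighbouring peaks are not independent, and the neighbourhood was picked by its peaks. The 4 sites in common were the strongest and second strongest ones, the one at 85.3% of Clec16a and the one beyond Prm1. In each, the NKT peak was the narrower one and lay wholly within its counterpart, so the overlap was 1067, 368, 209 and 157 bp.

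Overlap was more frequent among high-scoring peaks in both lists, so each peak was set beside the 100 peaks nearest to it in score rank. For the NKT peaks at the ends of Gm15558, 97% and 98% of peaks of like score were in common, but for the weaker NKT peaks, at 59.29 and 51.41, only 41% and 30%. Among the PLZF-transgenic peaks without an NKT counterpart, the one of score 219.6 had the highest score. For it, 75% of peaks of like score had a counterpart, so a peak without one is no rarity. For the other 8 the share was between 11% and 43%. Summed over the neighbourhood, the shares came to 2.66 for the NKT list, where 4 peaks were in common, and to 5.74 for the PLZF-transgenic list, where 4 were. These sums are descriptions and no test was made. The median score was 120.7 for the 4 NKT peaks, against 73.79 over the whole NKT list, and 116.5 for the 13 PLZF-transgenic peaks, against 110.8 over the whole list.

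**Figure D3:**
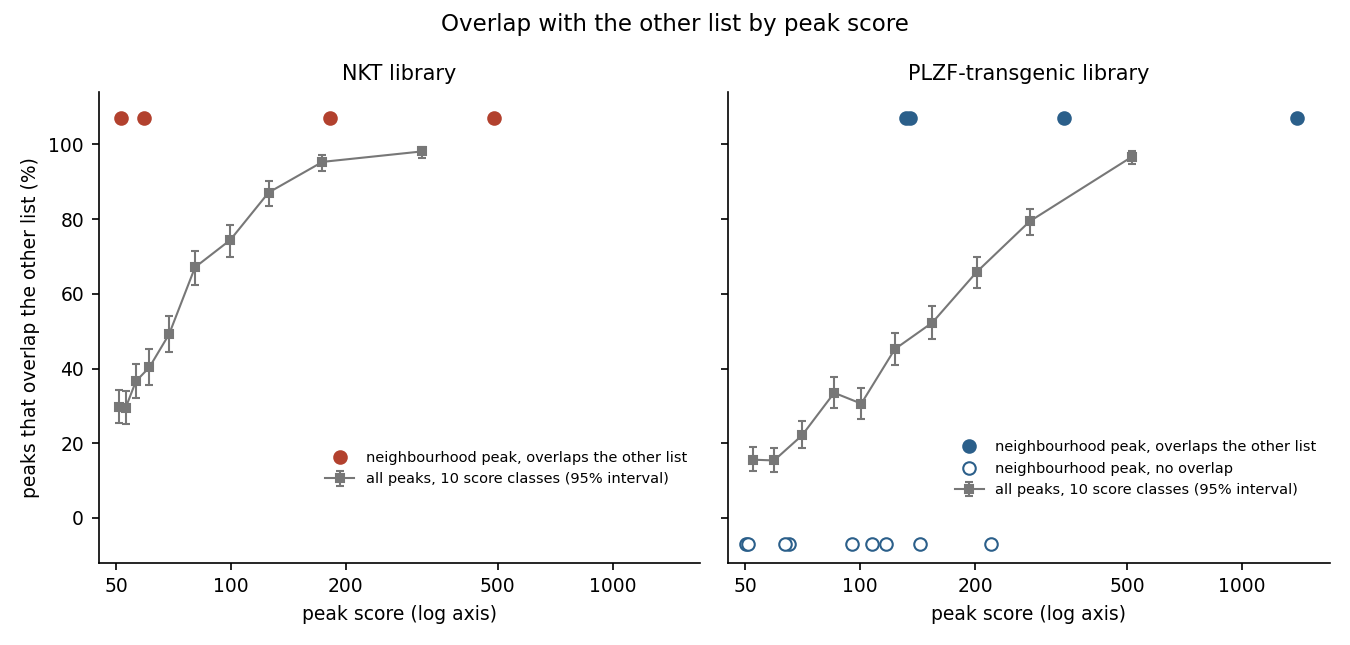
Percent of peaks that overlap the other list in 10 score classes of each whole list (squares at the median score of the class, bars the exact 95% interval), NKT library left and PLZF-transgenic library right, with the neighbourhood's peaks as circles placed at their score above 100% (overlap) or below 0% (no overlap). The PLZF-transgenic peak of score 219.6 is the highest-scoring circle without overlap.

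Peaks in the PLZF-transgenic list lay close together here. Inside the neighbourhood, the median distance between neighbouring midpoints was 32.1 kb for the 4 NKT peaks and 11.8 kb for the 13 PLZF-transgenic peaks. It was 119 and 72.7 kb over the nuclear genome and 105 and 45.4 kb on chromosome 16. The local medians leave out distances that cross the edges of the neighbourhood. The gaps between PLZF-transgenic peaks ran between 79 bp and 53.6 kb, and the longest spanned the whole Socs1 gene. Of 6654 tiled windows as long as the neighbourhood, 4.96% held at least 4 NKT peaks and 0.0902% (6 windows) at least 13 PLZF-transgenic peaks. Since the neighbourhood was picked for its peaks, these distances and shares only place it within the distribution.

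By gene, Clec16a with 50 kb on either side held 3 NKT and 12 PLZF-transgenic peaks. At least 3 NKT peaks were held by 4.54% of protein-coding genes, and at least 12 PLZF-transgenic peaks by 0.0274%, or 6 genes. The only genes with more PLZF-transgenic peaks were the neighbours Tg, the thyroglobulin gene, with 15 and Sla, a T cell adaptor gene, with 14, whose windows overlap. Of 2077 protein-coding genes between 100 and 400 kb long, Clec16a, Ldlrad3 and Ppm1h had 11 PLZF-transgenic peaks inside the body and none had more, and 76.2% had 0. At least 3 NKT peaks inside the body were found in 3.32% of these genes, and 79.2% had 0. Socs1 with 50 kb on either side held 1 NKT and 2 PLZF-transgenic peaks.

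Among genes rich in PLZF-transgenic peaks, Clec16a had the fewest NKT peaks as listed. For the 17 genes with at least 10 PLZF-transgenic peaks in the body or within 50 kb, the NKT number ran from 3 at Clec16a up to 11 for Rnf43, Supt4a and Tspoap1, which share peaks, with a median of 8. A counterpart in the NKT list was found for 25.0% of the Clec16a peaks, against a median of 50% and a range of 25.0 to 70% over the 17, with Nck2 next at 30%. That place in the order rested on peaks that lie close together. With peaks within 1 kb merged, Clec16a held 3 NKT sites, as few as Trim80, and 8 PLZF-transgenic sites, 3 of them in common (37.5%). Ccnd3, Nck2 and Taf8 had lower shares, but Ccnd3 and Taf8 both lie on chromosome 17 and may share peaks. These differences were not tested, since each list came from 1 library. Ets1, which encodes an ETS factor of lymphocytes, had 8 NKT and 11 PLZF-transgenic peaks. Ccnd3, the cyclin D3 gene, had 8 and 12, and Runx1, the gene of a RUNX factor of T cell development, 5 and 11. NKT counterparts were present for 54.5% of the PLZF-transgenic peaks at Ets1, 33.3% at Ccnd3 and 36.4% at Runx1. By the distance between the pairs of numbers, the genes most like Clec16a were Runx1 (distance 2.24), Nck2 (2.83, with 5 NKT and 10 PLZF-transgenic peaks), Ldlrad3 (3.16, with 6 and 11), Dusp10, a MAP kinase phosphatase gene (3.16, with 4 and 9), and the forkhead factor gene Foxp1 (3.16, with 4 and 9).

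**Figure D4:**
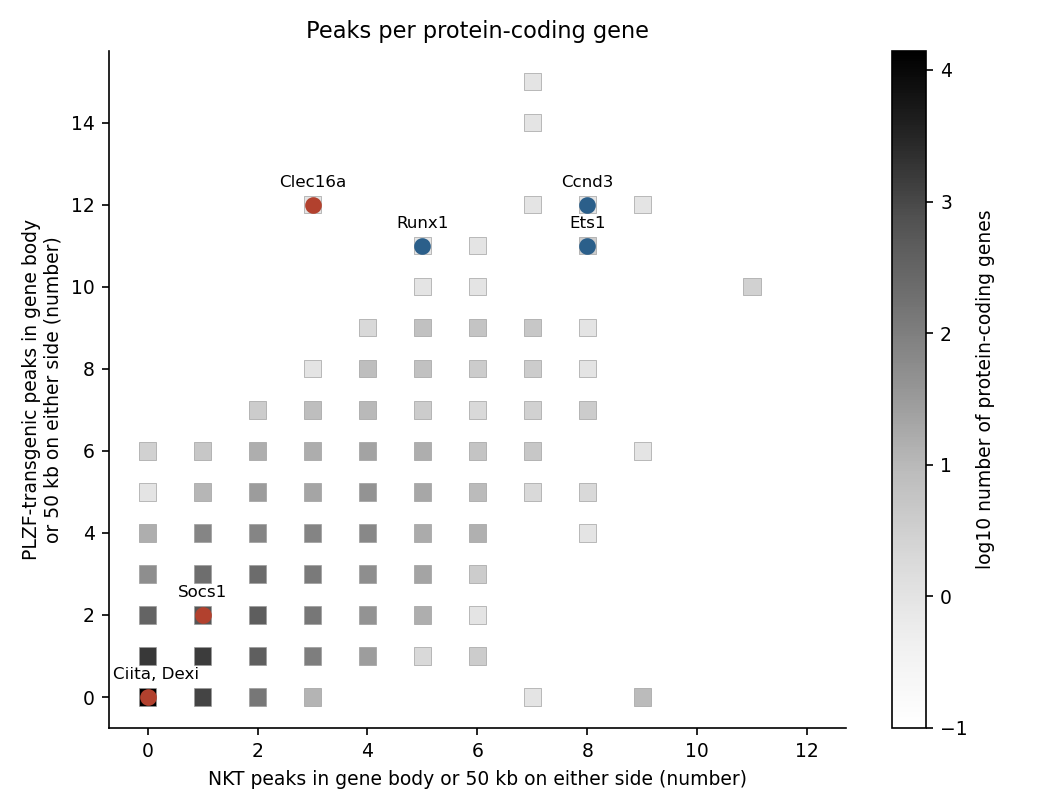
Number of NKT peaks (x axis) and PLZF-transgenic peaks (y axis) in the body of each protein-coding gene or within 50 kb on either side; each square is a pair of numbers, shaded by the log10 number of genes with it, and 5 genes with more than 12 NKT peaks are not drawn. Clec16a (3 and 12) lies at the upper left edge, Socs1 (1 and 2) and Ciita and Dexi (0 and 0) in the dense corner.

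The other genes of the pathways were read by the same rule, a peak in the body or within 50 kb, beside the 26.3% and 30.3% of all protein-coding genes. Neighbouring genes can share a peak under this rule. In the SOCS family, 4 of 8 genes had an NKT peak and 4 of 8 a PLZF-transgenic peak, Socs1 among them in both. Socs3, an inhibitor of STAT3 signalling, had highest scores of 416.9 in the NKT list and 653.5 in the PLZF-transgenic list (13.6 and 13.5 kb away). Cish, an inhibitor of STAT5 signalling, had 74.51 at 35.7 kb in the NKT list and 74.04 at 6.7 kb in the PLZF-transgenic list, which are different sites. Socs4 had an NKT peak alone (57.6) and Socs5 a PLZF-transgenic peak alone (51.48). Socs2, Socs6 and Socs7 had none in either list. Among the kinases, STAT factors, receptors and ubiquitin ligase partners through which SOCS1 acts or which it restrains, 15 of 24 had an NKT peak and 19 of 24 a PLZF-transgenic peak, 14 in both. By the higher of both scores, which was the PLZF-transgenic one in each case, the first were Il2ra (138.5 in the NKT list and 511.8 in the PLZF-transgenic list), Il4ra (359.1 and 412.7), and the adjacent genes Stat5a and Stat5b. The windows of Stat5a and Stat5b hold the same top peaks, which are different sites in the lists. The NKT one (181.1) lay 6.65 kb from Stat5a and the PLZF-transgenic one (376.4) inside Stat5b. The lists of cytokine signalling genes were drawn up with earlier results of these libraries known.

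Among MHC class II genes, factors that act with CIITA, and the related gene Nlrc5, NKT peaks lay at 8 of 18 and PLZF-transgenic peaks at 10 of 18. These are not all separate peaks. H2-Ob, H2-Ab1 and H2-Aa had the same NKT top peak (79.44). H2-DMb1 and H2-DMb2 had the same top peaks in the NKT list (54.48) and in the PLZF-transgenic list (150.4). By the higher of both scores, the first were Nlrc5, which encodes the class I counterpart of CIITA (360.3 at 20.7 kb in the NKT list and 489.4 at 20.6 kb in the PLZF-transgenic list), Creb1 (132.1 and 303.2), the invariant chain gene Cd74 (233.4 at 27.9 kb and 249.9 at 28.1 kb) and Nfyb (222.2 in the PLZF-transgenic list alone). The Rfx5, Rfxap and Rfxank genes, which encode the RFX complex on class II promoters, had none, nor had H2-Eb1, H2-Eb2 and Nfya. Of 16 partners of CLEC16A and mitophagy or autophagy genes, 4 had an NKT and 8 a PLZF-transgenic peak. Atg16l1 had scores of 473.0 and 937.4, 37.4 and 37.2 kb away, Lamp1 291.7 and 340.5 at 38.4 kb, and Rnf41, the gene of the ubiquitin ligase that binds CLEC16A, 60.22 and 194.6, 13.9 and 14.1 kb away. For Pink1, which starts mitophagy, only the PLZF-transgenic library gave a peak (101.3).

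Markers of other thymic cells were read in the same way. Peaks do not measure expression, so the labelled cell type could not be checked from these lists, and the part of other cells in the peaks was not tested. B cell genes were near peaks in 4 of 8 cases in the NKT list and 5 of 8 in the PLZF-transgenic list, among them Cd79b (115.7 and 295.0), Blk (125.3 and 271.2) and Ebf1 (224.4 and 160.2), while Cd22, Cd79a and Ms4a1 had none. Myeloid and dendritic genes had one at 4 and 3 of 8, with Flt3 at 238.5 and 450.9. Itgam had 139.2 inside the gene in the NKT list and 223.2 at 3.79 kb in the PLZF-transgenic list. Itgax had only this same NKT peak (139.2, 49.3 kb away) and a top PLZF-transgenic score of 193.5 (31.2 kb away). Cd14 had an NKT peak alone (59.91). Csf1r, Lyz2, Siglech and Zbtb46 had no peak. Thymic epithelial genes had one at 2 of 8 in each list. Prss16 had one in both, but the top peaks were different sites (91.71 at 27.1 kb in the NKT list and 105.2 at 31.7 kb in the PLZF-transgenic list). Cldn4 had a PLZF-transgenic peak alone (79.56 at 3.08 kb) and Epcam an NKT peak alone (51.71 at 27.2 kb). Foxn1, Aire, Psmb11, Krt5 and Krt8 had 0 peaks in both lists.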

How the data were processed

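Peak positions of 2 streptavidin ChIP-seq libraries were analysed. The authors deposited 1 peak list per library, with 5 columns, no header, peak names beginning with MACS and a score per peak whose scale is not stated. Per the submitters' processing notes, the build was mm10 and the tools Bowtie, Picard and HOMER; the sources used here name no versions, pooling or peak-calling control. BED starts were written 1-based. Gene spans came from a RefSeq table of GRCm38.p6, promoters from RefSeq.

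A peak belonged to the neighbourhood by its midpoint, and overlap meant at least 1 bp. Spacing, score ranks, genes by 50 kb flanks and tiled windows were computed with Python 3.11.15, pandas 2.3.3, numpy 2.4.6 and scipy 1.17.1, and the counting steps were tested on simulated data. No test was made. Genes named were the members, the genes around them, up to 4 per list by highest score, the 5 most like Clec16a, and Ets1, Ccnd3 and Runx1. List genes without a peak, Socs5, Prss16, the H2 genes that share peaks, Ppm1h, Trim80, Taf8, Tg, Sla and Litaf were named after their values were seen. So were the peakless-stretch genes and Rnf43 with its neighbours. Members and lists were chosen with earlier results of these data known. Alternatives varied flanks, score limits, merging and overlap. The values of 1 marker gene are not reported here.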

Additional observations from a re-analysis of the deposited data

How the results depend on the processing

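No paired analysis was possible because each group had 1 library, and for the same reason no replicate could be left out. Of 59 values recomputed under other settings, 37 stayed within 1.5 times the reported count or within the interval of the reported share. Some of the 37 could not move, since cutting the PLZF-transgenic list leaves the NKT peak numbers and the NKT gene share unchanged. Counts moved mainly with score limits. In the top 50% of each list by score, the neighbourhood held 2 NKT peaks, 2 of them in common, and 7 PLZF-transgenic peaks, 6 of them inside Clec16a and 2 in common. In the top 1000 it held 2 NKT peaks and 2 PLZF-transgenic peaks, the same sites at the ends of Gm15558, all inside Clec16a and all in common. With peaks within 1 kb merged, Clec16a held 7 PLZF-transgenic sites inside its body. Merging in the 17 peak-rich genes, also chosen after seeing the data, raised the share in common at Clec16a to 37.5%, against 25.0%, and 3 genes then had a lower share. Cutting the PLZF-transgenic list to the 4246 highest scores, chosen after seeing the data, left 11 peaks, 10 of them inside Clec16a.

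The share of protein-coding genes with a peak moved with every setting of the flank or the score limit. It was 16.9% in the NKT list and 19.8% in the PLZF-transgenic list with 20 kb on either side, 37.2% and 41.7% with 100 kb, 7.18% and 8.37% with gene bodies only, 15.8% and 18.2% with the top 50%, and 8.12% and 7.77% with the top 1000. With the PLZF-transgenic list cut to equal length its share was 26.5%. Depth is unknown, so a missing peak is not shown to be missing binding.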

Other observations

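Ciita and Dexi stood at the end of a long stretch without peaks. Before the first peak in Clec16a, no peak was listed over 3.07 Mb in the NKT list (7601576 to 10668364) and over 1.83 Mb in the PLZF-transgenic list (8807026 to 10639545). Of the distances between neighbouring peak midpoints, 4.5% were at least as long in the NKT list and 6.54% in the PLZF-transgenic list. The stretch without peaks in both lists held 10 whole protein-coding genes, among them Grin2a, a glutamate receptor gene, Emp2, Nubp1, Tvp23a, Ciita and Dexi. In the NKT list it also took in Usp7, which encodes a deubiquitinase, and the metabolic genes Abat and Pmm2. On the other side, past the site just beyond Rmi2, the next peak in each list overlapped that of the other and lay inside Litaf, which encodes an endolysosomal protein, with scores of 59.94 in the NKT list (chr16:10969343-10969536) and 126.1 in the PLZF-transgenic list (chr16:10969264-10969661).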
